A study of Mus musculus with 3 samples.

Results

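The genes described here are 9 enzymes of nucleotide and one-carbon synthesis: Tyms, Tk1, Rrm1, Rrm2, Shmt1, Shmt2, Mthfd1, Mthfd2 and Atic. They were taken by symbol from the deposited gene lists, and 9 of 9 were found, each under the same gene ID in all 3 runs, among 27734 gene IDs that the runs share. The description used 21879 of the 23283 deposited cells, which left out cells under 500 or over 5000 genes and cells above 7% mitochondrial counts. Levels were given by stage gate and cycling status for those of them that met a gate.

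The thymocytes came from C57BL/6 mice labelled as week 6 of age, and 4 thymi were pooled, depleted of CD4 and CD8 expressing cells and sorted for each library of 3′ single-cell RNA-seq. Run 1 held total double negative (DN) cells, the CD4-CD8- precursors of T cells, together with TCRγδ+ cells. In run 2 the sort took DN1 and DN2 cells and gated TCRγδ+ cells out, and for run 3 separate sorts of DN1 with DN2 cells, of DN3 cells and of TCRγδ+ cells were mixed. Each sort was made once, from pooled animals, so that levels of different runs were not tested against each other, and the sort, the reagent kit and the counting version cannot be told apart from the run.

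Dividing cells must copy their DNA and need all 4 deoxynucleotides for it. Ribonucleotide reductase, a complex of a large subunit (Rrm1) and a small subunit (Rrm2), makes deoxynucleotides from ribonucleotides, while thymidylate comes either from Tyms, which methylates dUMP with a folate-bound carbon, or from salvage of thymidine by Tk1. The carbon units are taken from serine by Shmt1 in the cytosol and Shmt2 in mitochondria, are moved between folate forms by Mthfd1 (cytosol) and Mthfd2 (mitochondria), and also enter the purine ring, whose last steps of assembly are catalysed by Atic. In the thymus, DN2 cells and DN3 cells that have passed β-selection divide extensively, which makes these enzymes useful for following nucleotide supply along T cell development.

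On the GRCm38 build, with GENCODE M21, Tyms lies at chr5:30058202-30073617 on the minus strand and Tk1 at chr11:117815526-117826092 on the minus strand. The reductase genes are Rrm1 at chr7:102441695-102469771 and Rrm2 at chr12:24708241-24714146, both on the plus strand. Shmt1 is found at chr11:60788104-60811718 (minus), Shmt2 at chr10:127517123-127522444 (minus), Mthfd1 at chr12:76255298-76319803 (plus), Mthfd2 at chr6:83305691-83325908 (minus) and Atic at chr1:71557150-71579631 (plus). Rrm1 and Mthfd2 each overlap 1 predicted gene on their own strand (Gm45399 and Gm43890, respectively), and reads in the shared parts may be counted for either gene or for none. Tyms also has a processed pseudogene, Tyms-ps, whose copy of the sequence makes its counts less certain.

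Because several of these genes moved together with the cell cycle, the 250 bases before the RefSeq start (GRCm38.p6) were searched on both strands for the words of the E2F factors. The first of these is TTCCCGC, in the order they were searched. A second form of the word is TTGGCGC, which on the other strand can overlap the box described next. A further form is TTCGCGC, and the last form that was searched for was TTGCCGC. The CCAAT box was searched for in the same way. E2F words were found before 4 of the 9 genes (Rrm1, Rrm2, Mthfd1 and Atic) and in 7.89% of the 32851 RefSeq windows of this length. The box was found before 6 of the 9 and in 33.8% of all windows. The windows of both reductase subunits are shown with that of Tyms, which also changed strongly with the cycle and has no match, and that of Atic, which changed least. Capitals mark the matches, and each is read 5′ to 3′ on the strand of the gene.
Rrm1, chr7:102441445-102441694, plus strand: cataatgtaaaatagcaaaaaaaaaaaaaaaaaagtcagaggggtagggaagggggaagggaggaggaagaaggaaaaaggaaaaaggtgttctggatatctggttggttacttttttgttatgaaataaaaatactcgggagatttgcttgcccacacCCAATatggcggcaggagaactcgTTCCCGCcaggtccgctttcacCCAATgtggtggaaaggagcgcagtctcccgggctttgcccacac
Rrm2, chr12:24708004-24708253, plus strand: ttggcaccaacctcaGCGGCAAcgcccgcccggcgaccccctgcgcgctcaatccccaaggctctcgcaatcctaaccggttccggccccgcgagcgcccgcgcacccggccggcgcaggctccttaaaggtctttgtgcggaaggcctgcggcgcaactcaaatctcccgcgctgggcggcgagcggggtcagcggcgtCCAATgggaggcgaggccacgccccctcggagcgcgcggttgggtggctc
Tyms, chr5:30073626-30073875, minus strand: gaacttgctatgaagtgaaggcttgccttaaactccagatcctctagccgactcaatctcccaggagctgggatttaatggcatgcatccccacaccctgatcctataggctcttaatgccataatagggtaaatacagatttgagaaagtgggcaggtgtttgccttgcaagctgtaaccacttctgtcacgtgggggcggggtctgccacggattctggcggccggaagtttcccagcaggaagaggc
Atic, chr1:71556906-71557155, plus strand: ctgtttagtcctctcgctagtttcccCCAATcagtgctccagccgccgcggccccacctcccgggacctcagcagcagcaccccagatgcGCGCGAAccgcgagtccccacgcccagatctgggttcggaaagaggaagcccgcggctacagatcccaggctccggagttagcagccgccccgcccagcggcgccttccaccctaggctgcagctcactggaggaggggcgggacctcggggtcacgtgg
The Rrm1 match lies 67 bases before the start and the Rrm2 match 235 bases before it, on the other strand. GENCODE places some RefSeq starts inside the gene. The windows of Shmt1 and Mthfd2, which are among the 6 with the box, lie within the GENCODE gene over all 250 bases, that of Tk1 over 78, that of Rrm2 over 13 and that of Atic over 6. A match describes these letters only, and no binding was measured here.

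The kept cells numbered 5516, 8852 and 7511 in runs 1, 2 and 3, with medians of 5989.5, 4844 and 8507 unique molecular identifiers (UMIs) per cell. Runs 1 and 2 shared 72 cell barcodes, runs 1 and 3 shared 1, and runs 2 and 3 shared 0. Run 3 lost more cells to the filters, of which 552 had over 5000 genes. It also held 582 cells with markers of other lineages, mostly of B cells, against 10 and 55 in the first and second. These formed a gate of their own that was not compared with any other. Their sums of at least 30 cells, from runs 2 and 3, were still among the 59 sums of the fit and of the correlations. Doublets were not removed, and removal of the cells with the highest doublet scores was tried as an alternative.

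Cells were gated on transcripts and not on the surface proteins of the sort. DN2-like cells had Il2ra with Kit or Cpa3 but neither Ptcra nor Rag1 or Rag2, DN2b-like cells had Il2ra with Kit or Cpa3 and also Ptcra or Rag1 or Rag2, and DN3-like cells had Il2ra and Ptcra without Kit or Cpa3. DN4-like cells had Ptcra, Cd8a or Cd8b1 without Il2ra, γδ-like cells had high Trdc with a Cd3 gene but neither Il2ra nor Ptcra, and DN1-like progenitors had Kit, Flt3 or Cd34 without Il2ra or Ptcra. Genes that were not used for the gates followed them in part. Notch3 was at 48.2, 40.4 and 107 CPM (UMIs of a gene in each 1000000 UMIs of the summed cells) in DN3-like cells and at 20.7, 13.5 and 20.1 CPM in DN2-like cells, and Sox13 reached 80.4, 119 and 302 CPM in γδ-like cells. Run 2, sorted without DN3 and TCRγδ+ cells, still gave 853 DN3-like and 845 γδ-like cells, and only run 1 was sorted for DN4 cells. The labels of these gates are therefore those of the transcripts. A further 1408, 1712 and 919 cells of runs 1, 2 and 3 met no gate at all. They entered none of the sums that were fitted, but they count among all kept cells.

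A cell was called resting when 16 replication genes (such as Mcm5 and Slbp) and 16 mitosis genes (such as Top2a and Ccnb1) each made up under 10 per 10000 of its UMIs. Other cells were called cycling, and S-like or G2/M-like by the larger share. No member is among these 32 genes. The members were known beforehand to rise with replication genes in cycling cells. Higher levels in cycling cells were therefore in large part given by how the classes were set. Cycling cells were 78.6% in run 1, 50.05% in run 2 and 41.4% in run 3, and 15.4%, 20.3% and 22.1% of cells, respectively, lay within 1.5 times of the limit. They also gave more UMIs per cell, with medians of 7497, 7559 and 14442 against 3045, 3345.5 and 6945 in resting cells. CPM gives a share of UMIs, so that a gene with equal CPM in both classes still had more UMIs per cycling cell. Among DN2-like cells, 24.8%, 23.8% and 30.8% were resting, whereas γδ-like cells were resting in 40.0%, 72.2% and 84.6%.

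The first comparison asked how much the enzymes rose in cycling cells of the same stage. In DN2-like cells, 8 of the 9 genes were higher in cycling than in resting cells, and in DN3-like cells 9 of 9 were. Of all 10892 genes tested, 29.5% changed in DN2-like cells (14.1% higher and 15.4% lower) and 39.7% in DN3-like cells (18.8% higher and 20.9% lower). The median log2 change of the 9 genes was 1.91 and 2.18, respectively, against -0.10 and -0.09 over all genes. Counts were summed per run, gate and cycle class and fitted by edgeR with the run as a block, and p-values were adjusted over all genes. Log2 changes of cycling cells, fitted or within a run, weight the S-like and G2/M-like sums equally, whereas CPM of cycling cells pools them. These sums come from 3 libraries of pooled animals. With gate, class and run fitted, the p-values rest on how differences between sums varied from run to run. That variation was pooled over all 59 sums, and it may be technical.

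**Figure D1:**
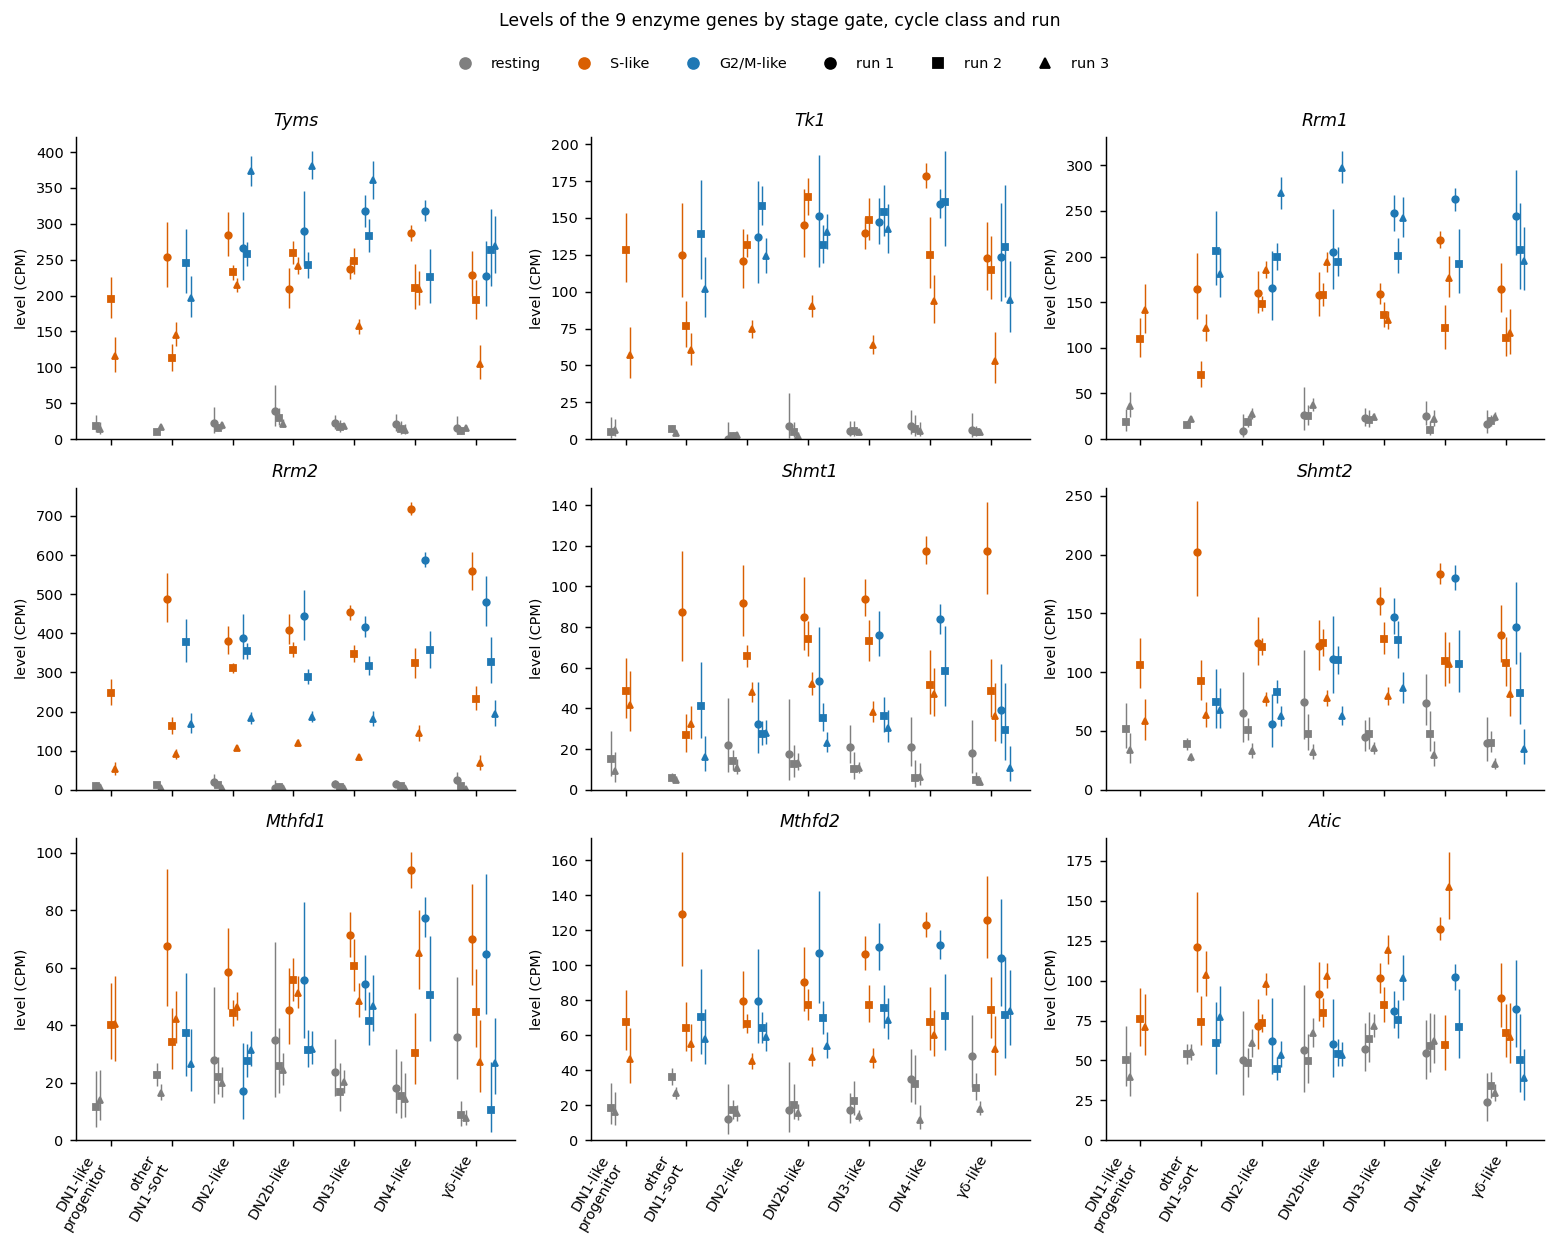
Level of each gene in CPM (y axis, from 0) by stage gate (x axis) in resting (grey), S-like (orange) and G2/M-like (blue) cells of run 1 (circles), run 2 (squares) and run 3 (triangles). Bars are 95% exact Poisson intervals, which cover counting error only, and groups under 30 cells are not drawn. Resting levels of Tyms, Tk1, Rrm1 and Rrm2 lie below all cycling levels in every gate, whereas those of Atic come close to the G2/M-like levels of DN2-like cells.

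The thymidylate enzymes were among the most changed. Tyms in resting DN2-like cells was at 21.9, 15.3 and 19.0 CPM in the 3 runs, from 7, 35 and 59 UMIs, and in cycling DN2-like cells at 279, 239 and 261 CPM. The ranges lie far apart, and the 3 runs were close to each other within each class. The log2 change was 3.93 ± 0.27 (SE; 15.2-fold; adjusted p = 2.17e-16). DN3-like cells gave 22.9, 17.0 and 18.9 CPM when resting and 265, 263 and 210.5 CPM when cycling, a log2 change of 3.82 ± 0.26 (adjusted p = 8.09e-17).

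Tk1, the cytosolic thymidine kinase, was barely counted in resting DN2-like cells. It gave 0 UMIs of 320004 in run 1, for which the 95% exact Poisson interval reaches up to 11.5 CPM (a floor of 3 counts is 9.38 CPM), and 1.75 and 2.57 CPM in runs 2 and 3, from 4 and 8 UMIs. In cycling DN2-like cells it was at 126, 139 and 89.0 CPM, so that every run showed the difference and run 3 had the lowest cycling level. The fitted log2 change of 5.78 ± 0.33 (adjusted p = 4.86e-19) rests on these few resting counts. In DN3-like cells the levels were 5.72, 5.66 and 4.77 CPM when resting and 142, 151 and 84.4 CPM when cycling, and the log2 change was 4.56 ± 0.26 (adjusted p = 6.31e-19).

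Of ribonucleotide reductase, the small subunit had the larger fitted change. Rrm2 was at 18.7, 13.1 and 4.82 CPM in resting DN2-like cells and at 383, 323 and 129.8 CPM in cycling ones. Both classes were lowest in run 3, yet the difference within each run was alike, with log2 changes of 4.25, 4.64 and 4.82. The fitted change was 4.66 ± 0.33 in DN2-like cells (adjusted p = 7.02e-16) and 5.11 ± 0.33 in DN3-like cells (adjusted p = 3.82e-17), which went from 15.3, 6.61 and 4.39 CPM to 441, 334 and 109 CPM. Rrm1 was at 9.37, 18.8 and 27.6 CPM in resting and at 162, 162 and 209.7 CPM in cycling DN2-like cells, without overlap. Its log2 change was 3.12 ± 0.21 (adjusted p = 1.97e-16) in DN2-like and 3.08 ± 0.21 (adjusted p = 8.09e-17) in DN3-like cells, where resting cells gave 22.9, 20.8 and 24.4 CPM and cycling cells 190.0, 163 and 159 CPM. The difference between the changes of the subunits was not tested.

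**Figure D2:**
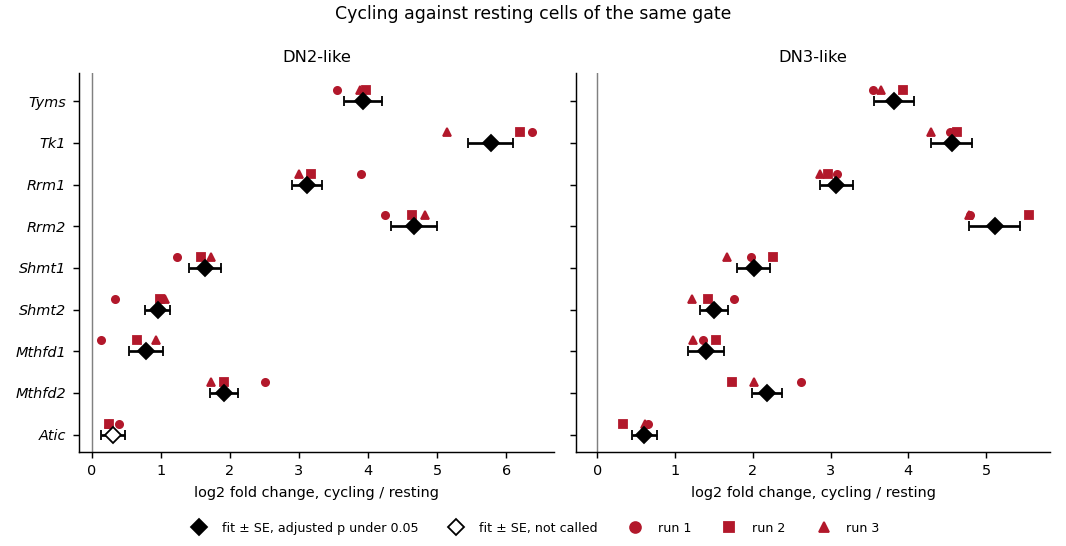
Log2 fold change of cycling against resting cells (x axis) for the 9 genes in DN2-like (left) and DN3-like cells (right), as the fit with its SE (diamonds, filled where the adjusted p is under 0.05) and within each run (red symbols). The genes fall from 5.78 (Tk1) to 0.30 (Atic, open) in DN2-like cells, and all runs lie above 0.

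The folate enzymes rose less. Mthfd2, the mitochondrial methylene-tetrahydrofolate dehydrogenase, was at 12.5, 17.1 and 15.4 CPM in resting and at 79.3, 65.8 and 49.1 CPM in cycling DN2-like cells, a log2 change of 1.91 ± 0.20 (adjusted p = 9.36e-11). In DN3-like cells it went from 17.2, 22.7 and 13.9 to 108, 76.8 and 52.4 CPM (2.18 ± 0.19 on the log2 scale, adjusted p = 2.75e-13). Its cytosolic counterpart Mthfd1 gave 28.1, 21.9 and 19.9 CPM in resting and 46.9, 39.5 and 42.2 CPM in cycling DN2-like cells. The classes did not overlap, but the change of 0.79 ± 0.24 (adjusted p = 0.0109) was not called without run 2 (adjusted p = 0.053) or run 3 (adjusted p = 0.298). In DN3-like cells Mthfd1 rose from 23.8, 17.0 and 20.2 to 65.4, 52.7 and 48.1 CPM (1.40 ± 0.23, adjusted p = 2.49e-06).

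Both serine hydroxymethyltransferases were higher in cycling cells. Shmt1 went from 21.9, 14.0 and 10.9 CPM in resting to 75.1, 54.8 and 42.1 CPM in cycling DN2-like cells, with run 1 the highest in both (log2 change 1.65 ± 0.23, adjusted p = 1.58e-07). Shmt2 was at 65.6, 50.8 and 33.1 CPM in resting and at 106, 111 and 72.9 CPM in cycling DN2-like cells, and its change of 0.96 ± 0.18 (adjusted p = 4.89e-05) was smallest in run 1, at 0.33. In DN3-like cells the log2 changes were 2.01 ± 0.22 for Shmt1 (adjusted p = 1.65e-10) and 1.502 ± 0.174 for Shmt2 (adjusted p = 1.15e-09).

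Atic, which catalyses the final steps of IMP synthesis, was the gene with the smallest change in both gates. Resting DN2-like cells had 49.999, 48.2 and 60.7 CPM and cycling ones 69.1, 65.1 and 84.9 CPM. These CPM pool S-like and G2/M-like cells, whereas the fit weights their sums equally, which gave log2 changes of 0.39, 0.24 and 0.25 within the runs. Although the pooled classes did not overlap, the fitted log2 change of 0.30 ± 0.17 did not pass the test (adjusted p = 0.191), and its 95% interval ran from -0.04 to 0.65. It passed when only these populations were fitted (0.36, adjusted p = 0.00587). In DN3-like cells Atic was at 57.2, 63.2 and 71.7 CPM when resting and at 94.3, 80.6 and 114 CPM when cycling (0.61 ± 0.16, adjusted p = 0.00242). That change was not called without run 3 (adjusted p = 0.0586), with gates read from thinned cells (adjusted p = 0.575) or without the run block. Cycling cells gave more UMIs in all, and UMIs of Atic per DN3-like cell differed more than CPM, at 0.203, 0.280 and 0.562 when resting and 0.816, 0.648 and 1.42 when cycling.

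Whether the cycling effect differed between DN2-like and DN3-like cells was tested directly. In edgeR 0 of the 9 genes passed, against 0.00918% of all genes (1 gene, lower), and 2 of the 9 had an unadjusted p under 0.05. These were Tk1 (difference -1.22 ± 0.58, adjusted p = 0.779) and Shmt2 (0.54 ± 0.25, adjusted p = 0.779). By p they ranked only 551 and 492, respectively, of the 10892 genes tested. DESeq2 also called 0 of the 9. A smaller rise of Atic in DN2-like than in DN3-like cells is therefore not shown, and its difference was 0.30 with a 95% interval from -0.16 to 0.77.

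Summed over all kept cells, most UMIs of these genes came from cycling cells. For Rrm2 the share was 99.6%, 98.4% and 97.6% in the 3 runs, for Tk1 99.5%, 98.2% and 96.3%, and for Tyms 99.01%, 97.3% and 94.997%. Atic gave the lowest shares, with 95.01%, 74.6% and 70.3%. Cycling cells held 90.04%, 68.1% and 57.9% of all UMIs, so that Atic exceeded the share of an average UMI in each run by the smallest margin.

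**Figure D3:**
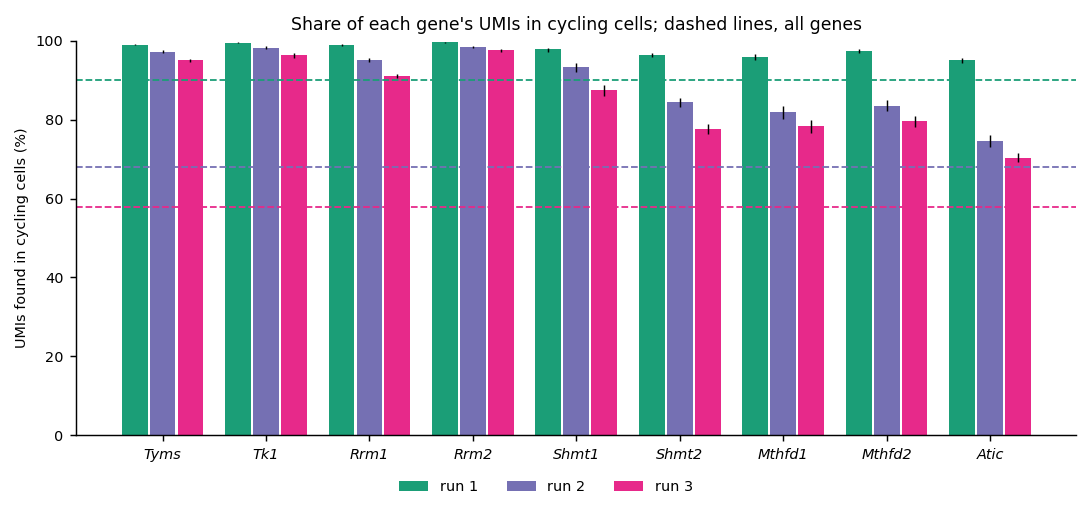
Share of the UMIs of each gene found in cycling cells (y axis, percent) in run 1 (green), run 2 (purple) and run 3 (pink), with 95% exact binomial intervals, which cover counting error only. The dashed lines give the share of all UMIs, which is 90.04%, 68.1% and 57.9%, and all bars stand above the line of their run.

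The genes did not follow the same course through the cycle. DN2-, DN2b-, DN3- and DN4-like cycling cells were ordered by the share of mitosis genes among their cycle UMIs, from early (0 to 10%) to late (75 to 100%). Mcm5, a replication gene, peaked at 319 and 271 CPM in the bin of 10 to 25% in runs 1 and 2 and at 247 CPM in that of 25 to 50% in run 3, while Ccnb1 was highest in the last bin of every run, as its use in the order would give.

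Rrm1 rose from 114, 97.6 and 102 CPM in the earliest bin to 268, 239.9 and 312 CPM in the bin of 50 to 75%, its highest in every run, and then fell to 201, 170.2 and 235 CPM. Tyms behaved in a like manner, with its highest level in the bin of 50 to 75% in runs 1 and 3 (339 and 507 CPM) and in that of 25 to 50% in the second (434 CPM). Rrm2 and Tk1 were highest in the bin of 25 to 50% in runs 1 and 2 and in that of 50 to 75% in run 3. For Rrm2 these peaks were 715, 610.5 and 265 CPM, and for Tk1 208, 270.4 and 178 CPM.

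For Atic and Shmt1 the peak was in the bin of 10 to 25% or of 25 to 50%. Atic was at 123 and 82.5 CPM in the bin of 10 to 25% in runs 1 and 2 and at 116 CPM in the bin of 25 to 50% in run 3, and in the last bin of runs 2 and 3 it was at 54.3 and 58.2 CPM, close to its resting levels of 53.3 and 67.0 CPM, whereas in run 1 it was at 87.3 CPM against 55.4 CPM in resting cells. Shmt1 peaked at 116 and 58.5 CPM in the bin of 25 to 50% in runs 1 and 3, and at 77.7 CPM in that of 10 to 25% in run 2, and declined to 66.1, 27.8 and 16.6 CPM in the last bin of runs 1, 2 and 3. Shmt2, Mthfd1 and Mthfd2 had their highest level in the bin of 25 to 50% in each run, except that Mthfd2 reached 79.7 CPM in the bin of 50 to 75% in run 3. The mix of gates was not held over the bins. Median depth also differed, with 4110, 6364 and 10912 UMIs in the first bin of runs 1, 2 and 3 and 9490, 10684 and 19084 in the last. The bins are defined by expression and the order of cells within a bin is not known, so that this is a description.

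**Figure D4:**
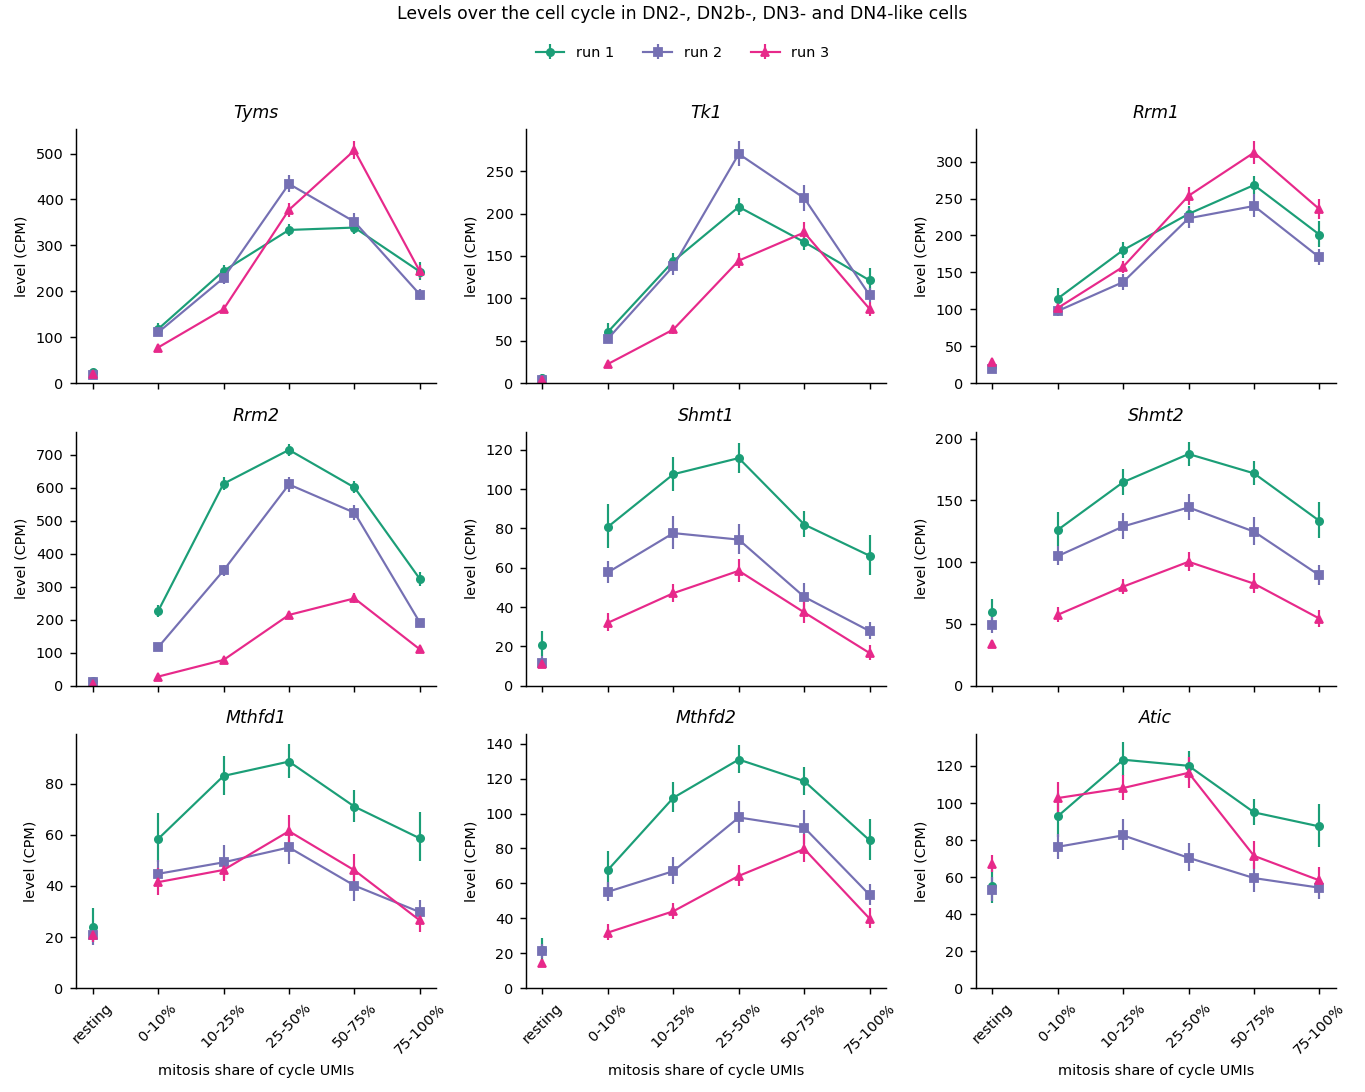
Level of each gene in CPM (y axis, from 0) in resting cells and in 5 bins of cycling cells by the share of mitosis genes among cycle UMIs (x axis), in DN2-, DN2b-, DN3- and DN4-like cells of each run, with 95% exact Poisson intervals. Rrm1 peaks in the bin of 50 to 75% in every run, and Shmt1 and Atic have fallen there.

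S-like and G2/M-like cells of the DN2-like and DN3-like gates were then compared. Of the 9 genes, 6 differed, 3 in each direction, whereas 17.7% of all genes did (8.7% higher and 8.98% lower in S-like cells). Shmt1 was higher in S-like cells, at 91.8, 65.6 and 47.9 CPM against 32.2, 27.5 and 28.0 CPM in the DN2-like gate and at 94.0, 73.0 and 38.3 against 76.2, 36.4 and 30.4 CPM in the DN3-like gate (log2 difference 0.76 ± 0.14, adjusted p = 2.99e-05). All 3 runs went this way. Mthfd1 (0.49 ± 0.16, adjusted p = 0.0233) and Atic (0.43 ± 0.12, adjusted p = 0.0116) were also higher in S-like cells in 3 of 3 runs, averaged over both gates.

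Rrm1 was lower in S-like cells, with 160.3, 148 and 185 against 165, 199.6 and 269 CPM in DN2-like cells and 159, 136 and 130.1 against 247, 200.3 and 243 CPM in DN3-like cells (log2 difference -0.58 ± 0.12, adjusted p = 3.19e-04). Averaged over both gates, Tyms (-0.50 ± 0.14, adjusted p = 0.0103) and Tk1 (-0.46 ± 0.12, adjusted p = 0.00643) were lower in 3 of 3 runs. They were so mostly in run 3, where the log2 differences were -0.999 and -0.947 against values between -0.17 and -0.13 in the first and second. Depth differed between the classes. In DN3-like cells of run 3 the medians were 8389.5 UMIs in S-like, 21279 in G2/M-like and 7436 in resting cells. In runs 1 and 2 they were 5917 and 6178 in S-like against 11287 and 10353 in G2/M-like DN3-like cells. The part of depth was not tested. Within the DN2-like gate, Tyms was higher in S-like cells of run 1 (285 against 266 CPM) and lower in those of runs 2 and 3. Gates outside this comparison did not go 1 way. Tk1 was higher in S-like cells of the DN4-like gate in run 1 (179 against 160 CPM) and of the DN2b-like gate in run 2 (164 against 132 CPM). It was lower in S-like DN2b-like cells of runs 1 and 3 and in S-like DN4-like cells of run 2. These were not tested. Without run 3 only Shmt1 was called among the 9, and the log2 differences were -0.17 for Tyms (adjusted p = 0.536) and -0.16 for Tk1 (adjusted p = 0.537). Rrm2 showed -0.94 in run 3 and 0.05 and -0.03 in the others, and did not pass (adjusted p = 0.157). Shmt2 and Mthfd2 did not pass either. Mthfd1 and Atic were not called without run 2 (adjusted p = 0.213 and 0.0645).

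The stages were compared next within each cycle class. In resting cells, 0 of the 9 genes differed between the DN3-like and DN2-like gates in edgeR, while 7.4% of all genes did (3.18% higher and 4.22% lower). Only Tk1 had an unadjusted p under 0.05 (log2 difference 1.35 ± 0.56, adjusted p = 0.162), on counts of 6, 6 and 25 against 0, 4 and 8 UMIs. By p it ranked only 1405 of the 10892 genes tested. DESeq2 also called 0. The 95% intervals of the log2 difference ran from -0.12 to 0.67 for Atic and from -1.44 to 0.66 for Rrm2, so that differences within these bounds remain possible.

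In cycling cells, Atic, Shmt2 and Mthfd1 were higher in DN3-like than in DN2-like cells. These are 3 of the 9, while 16.6% of all genes differed (8.63% higher and 7.92% lower). Atic was at 94.3, 80.6 and 114 CPM against 69.1, 65.1 and 84.9 CPM, a log2 difference of 0.58 ± 0.13 (adjusted p = 6.59e-04). Shmt2 was at 156, 128 and 81.4 against 106, 111 and 72.9 CPM (0.46 ± 0.12, adjusted p = 0.00614), and Mthfd1 at 65.4, 52.7 and 48.1 against 46.9, 39.5 and 42.2 CPM (0.50 ± 0.16, adjusted p = 0.0229). Each gene was higher in DN3-like cells in all 3 runs, while across runs the gates overlapped for Atic and Shmt2 and not for Mthfd1.

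The other genes did not pass. For Tyms, Rrm1 and Rrm2 the log2 differences were 0.01, -0.01 and 0.05, with 95% intervals from -0.27 to 0.29, from -0.25 to 0.23 and from -0.27 to 0.38. The gates read whether a transcript was seen, and the depth of DN2-like and DN3-like cells differed (medians of 4584, 7267.5 and 13189.5 against 5167, 6029 and 7862 UMIs). With gates read from cells thinned to 2000 UMIs, 0 of the 9 were called in this comparison, and the log2 differences were 0.13 for Atic, 0.13 for Shmt2 and 0.01 for Mthfd1. Without run 2 only Atic was called, and without run 3 only Shmt2.

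**Figure D5:**
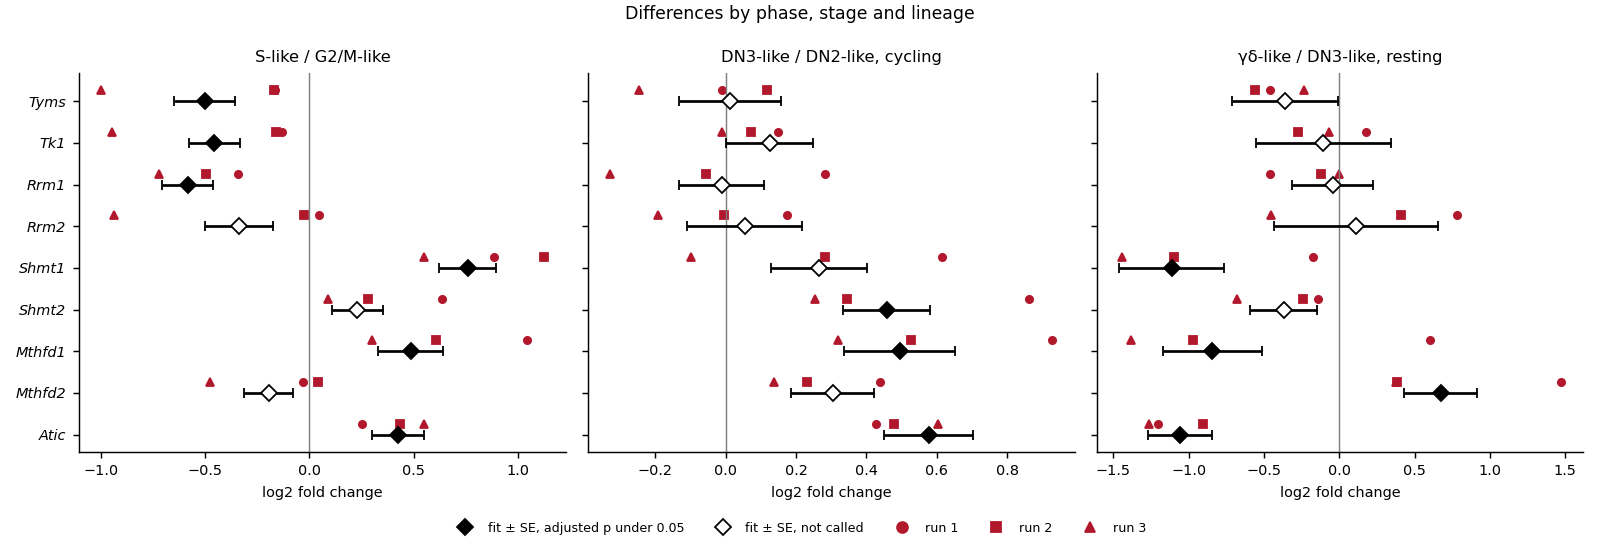
Log2 fold change (x axis) of S-like against G2/M-like cells (left), of DN3-like against DN2-like cycling cells (middle) and of γδ-like against DN3-like resting cells (right), as the fit with its SE (diamonds, filled where the adjusted p is under 0.05) and within each run (red symbols). Values of Tyms and Tk1 at the left lie near -1 in run 3 only, and the value of Mthfd1 at the right is above 0 in run 1 only.

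DN2b-like cells lay near the DN2-like ones. Cycling DN2b-like cells had Rrm2 at 419, 328 and 145 CPM, Tyms at 232, 252 and 294 CPM and Atic at 82.7, 68.6 and 84.6 CPM. DN1-like progenitors were present in sufficient number in runs 2 and 3 only. When resting, they had Tyms at 18.4 and 14.0 CPM, Rrm1 at 18.4 and 36.2 CPM and Atic at 50.3 and 39.7 CPM, and 0 of the 9 genes differed from resting DN2-like cells in edgeR, while 4.66% of all genes did (2.8% higher and 1.86% lower). None had an unadjusted p under 0.05 and DESeq2 called 0, on 3 to 34 UMIs per gene and run. Their S-like cells reached 196 and 116 CPM of Tyms and 248 and 53.1 CPM of Rrm2. The other cells of the DN1 sort, with Cd44 or Il7r but without these markers, were mostly resting in runs 2 and 3 (83.2% and 84.8%), and their Tyms was at 9.38 and 16.7 CPM when resting. They held Klrd1 at 603 and 222 CPM and Trac at 1131 and 444 CPM, so that they are no uniform precursor population.

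DN4-like cells of run 1, the run in which DN4 cells were sorted, had the highest cycling levels of that run among the DN gates from DN2-like on for all 9 genes. In these cells Rrm2 was at 667 CPM, Tyms at 299 CPM, Rrm1 at 236 CPM, Shmt2 at 183 CPM, Tk1 at 171 CPM, Atic at 120.4 CPM, Mthfd2 at 119 CPM, Shmt1 at 104 CPM and Mthfd1 at 87.4 CPM. In DN3-like cells of the same run the levels were 441, 265, 190.0, 156, 142, 94.3, 108, 87.8 and 65.4 CPM in the same order. The difference in Rrm2 was present within S-like cells, with 719 CPM in DN4-like and 453 CPM in DN3-like cells. Only 10.9% of DN4-like cells in this run were resting. Run 1 had no separate sort of DN1 cells. Its 132 cells with Cd44 or Il7r but outside the other gates had Klrd1 at 0 CPM and Cd44 at 11.8 CPM. The same gate in runs 2 and 3 had Klrd1 at 603 and 222 CPM and Cd44 at 119.9 and 81.3 CPM. In run 1, the 106 cycling cells of this gate were above DN4-like cells for Shmt2 (155 of 759783 UMIs) and Mthfd2 (99 UMIs). They were below DN4-like cells for Tyms, Tk1, Rrm1, Rrm2, Shmt1 and Mthfd1. Mthfd2 of cycling γδ-like cells (165 of 1390265 UMIs) was level with that of DN4-like cells. The DN4-like cells of the other runs, which were not sorted for DN4 cells, did not show one direction. Their markers differed from those of run 1. In runs 2 and 3 Cd8b1 was at 30.4 and 38.7 CPM against 177 CPM in run 1, and Klrd1 at 85.3 and 27.6 against 0.42 CPM. Ptcra was at 294 and 152 against 157 CPM. In run 2, cycling DN4-like cells were lower than DN3-like cells for 8 of the 9 genes, with Tyms at 217 against 263 CPM and Atic at 64.3 against 80.6 CPM, and only Rrm2 was slightly higher, at 337 against 334 CPM. In run 3 they were higher for 9 of 9, with Rrm2 at 161 against 109 CPM and Atic at 144 against 114 CPM. These differences were not tested.

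Resting γδ-like cells differed from resting DN3-like cells in 4 of the 9 genes, 1 higher and 3 lower, while 28.7% of all genes differed (15.4% higher and 13.4% lower). Atic was at 24.003, 33.8 and 29.8 CPM in γδ-like and at 57.2, 63.2 and 71.7 CPM in DN3-like cells. The gates did not overlap, and the log2 difference was -1.06 ± 0.21 (2.08-fold lower, adjusted p = 1.05e-04). It was called under all alternatives except without run 3 (adjusted p = 0.0555). Shmt1 was at 18.0, 4.82 and 3.84 CPM against 21.0, 10.4 and 10.7 CPM (-1.11 ± 0.35, adjusted p = 0.0125), with little difference in run 1, and it was not called without run 3 (-0.78, adjusted p = 0.399). Mthfd1 was at 36.0, 8.68 and 7.68 CPM against 23.8, 17.0 and 20.2 CPM (-0.84 ± 0.33, adjusted p = 0.0472), hence higher in γδ-like cells of run 1 and lower in the others. It was not called without run 2 (adjusted p = 0.169), without run 3 (-0.28, adjusted p = 0.826) or by DESeq2 (adjusted p = 0.0895).

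Mthfd2 was the exception, with 48.0, 29.9 and 18.1 CPM in resting γδ-like and 17.2, 22.7 and 13.9 CPM in resting DN3-like cells (0.67 ± 0.24, adjusted p = 0.0288). It was higher in each run, and most in the first, where the log2 difference was 1.47. Without run 1 it was 0.43 (adjusted p = 0.210), and it was not called without run 2 (adjusted p = 0.0971) or run 3 (adjusted p = 0.065) either. Tyms, Tk1, Rrm1, Rrm2 and Shmt2 did not pass. Once cycling, γδ-like cells had Rrm2 at 532, 258 and 126 CPM, Tyms at 229, 212 and 181 CPM and Tk1 at 123, 119 and 72.5 CPM, so that Tyms and Tk1 were slightly lower than in the DN2-, DN2b-, DN3- and DN4-like gates of each run. This difference was not tested.

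The levels in the 3 runs are given side by side, with no test. Over all cycling cells Rrm2 was at 554, 312 and 131 CPM in runs 1, 2 and 3, whereas Rrm1 was at 206, 157 and 194 CPM and Tyms at 277, 235 and 241 CPM. Shmt1 (97.8, 54.4 and 40.1 CPM), Shmt2 (168, 112 and 74.9 CPM), Mthfd2 (115, 70.3 and 54.8 CPM) and Tk1 (155, 137 and 91.1 CPM) were also highest in run 1 and lowest in run 3, whereas Mthfd1 (75.8, 43.2 and 46.2 CPM) and Atic (108, 69.8 and 96.5 CPM), like Rrm1 and Tyms, were highest in run 1 and lowest in run 2. The order of Rrm2 was present within S-like DN2-like cells (382, 311 and 108 CPM) and S-like DN3-like cells (453, 347 and 83.7 CPM). With 1 library per sort this is a description of the 3 libraries.

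The other genes of these pathways, 49 tested of 52 on 5 lists, changed less uniformly. In DN2-like cells 24 of the 49 were higher and 6 lower when cycling, and in DN3-like cells 27 were higher and 5 lower, with medians of 0.38 and 0.60 on the log2 scale. Over all genes, 14.1% were higher and 15.4% lower in DN2-like cells, and 18.8% and 20.9% in DN3-like cells. Of 11 purine synthesis genes, 8 were higher in each gate and none lower, led in DN2-like cells by Pfas (1.18 ± 0.21), Paics (1.001 ± 0.16) and Ppat (0.98 ± 0.20), which act before Atic. Of 6 pyrimidine synthesis genes, 4 were higher in DN2-like cells, with Cad (1.499 ± 0.242), Umps (1.27 ± 0.18) and Ctps (1.21 ± 0.21) in front, and in DN3-like cells 5 were higher and 1 lower.

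Of 11 genes of deoxynucleotide supply, 5 were higher and 4 lower in cycling DN2-like cells. Dut, which makes dUMP for Tyms, rose by 2.08 ± 0.16 on the log2 scale (adjusted p = 2.12e-15). Samhd1, which degrades deoxynucleotides, was lower (-1.69 ± 0.40, adjusted p = 9.57e-04). Tk2 (-1.07 ± 0.24), Rrm2b (-0.82 ± 0.27) and Dguok (-0.40 ± 0.13), which serve deoxynucleotide supply outside S phase or in mitochondria, were lower too, opposite in direction to Tk1 and Rrm2. These 3 were named after their values were seen. In DN3-like cells, 5 were higher and 3 lower. Of 14 one-carbon and serine genes tested, 3 were higher and 2 lower in DN2-like cells, near the shares over all genes. Psat1 (1.87 ± 0.17) and Mthfd1l (1.11 ± 0.21) changed most there. In DN3-like cells 5 of the 14 were higher and 1 lower (18.8% and 20.9% of all genes), with a median log2 change of 0.33. Of 7 salvage genes, 4 were higher in each gate, led by Hprt (1.13 ± 0.14) and Slc29a1 (0.87 ± 0.16) in DN2-like cells.

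In the comparison of resting γδ-like with DN3-like cells, 3 of the 49 were higher and 13 lower, while over all genes 15.4% were higher and 13.4% lower. Samhd1 was higher by 3.50 ± 0.46 (adjusted p = 4.08e-08). Uck2, a uridine-cytidine kinase, was lower (-2.07 ± 0.23, adjusted p = 8.41e-10), as were Phgdh, which starts serine synthesis (-1.14 ± 0.16, adjusted p = 9.99e-08), Ada (-1.06 ± 0.23, adjusted p = 2.54e-04) and Impdh2 (-0.87 ± 0.16, adjusted p = 2.70e-05). Between cycling DN3-like and DN2-like cells 8 were higher and 2 lower (8.63% and 7.92% of all genes), with Aprt (0.61 ± 0.10), Cad (0.57 ± 0.14), Nme1 (0.51 ± 0.09) and Prps2 (0.51 ± 0.11) in front. Between S-like and G2/M-like cells 10 were higher and 2 lower (8.7% and 8.98% of all genes), led by Dctd (1.49 ± 0.19). Of the 49, 3 changed between resting DN3-like and DN2-like cells (7.4% of all genes) and 4 between resting DN1-like progenitors and DN2-like cells (4.66% of all genes).

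Likeness of pattern was described by Pearson correlation of log2(CPM + 1) over the 59 sums, which share libraries and depth, among 7674 genes outside the gate and cycle genes. The gene nearest to Tyms was Pclaf (r = 0.977), a binding partner of PCNA, followed by Gmnn (0.976), and Pclaf also stood among the 3 nearest genes of Rrm1, Rrm2 and Tk1. Rrm1 was nearest to Spc24 (0.970), and Rrm2 to Asf1b (0.968), a histone chaperone. Shmt1 was nearest to Rbmxl1 (0.950), Dctpp1 (0.948) and Hat1 (0.946), Shmt2 to Ranbp1 (0.953) and Eif5a (0.949), Mthfd2 to Cycs (0.929) and Pold2 (0.912), and Mthfd1 to Ppa1 (0.856). Atic was nearest to Mrto4 (0.880) and Fbl (0.878), which act in ribosome biogenesis. Among the members themselves, r was highest between Tyms and Rrm1 (0.969) and lowest between Mthfd2 and Atic (0.464).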

How the data were processed

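The authors aligned the reads of each 10x library to mm10 with Cell Ranger and deposited raw UMI counts per gene and cell. The header of run 3 gives version 4.0.0, and the version of the other runs is not given per run in the sources used here. Cells were filtered, gated and classed as described, counts were summed per run, gate and cycle class (at least 30 cells), and 59 sums with 10892 genes were fitted with edgeR 4.0.16 (R 4.3.3) by TMM, filterByExpr, the run as a block and two-sided quasi-likelihood tests with Benjamini-Hochberg adjustment over all genes at 0.05. Log2 changes of cycling cells average the S-like and G2/M-like sums. The members, pathway lists and tests were chosen with earlier results of these data known, and the gate and cycle limits were set after the data had been seen. Named list genes are up to 3 called genes per list with the largest change and the same direction in every run. A gene that this rule names is not reported here. The fit was tested on simulated data. Totals were 39947415, 52797915 and 98533329 UMIs. Alternatives used DESeq2 1.42.0, scanpy 1.11.5 (Scrublet), other filters, gates and cycle limits, and fits without each run.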

Additional observations from a re-analysis of the deposited data

Results flagged for a closer look

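The 552 cells of run 3 that had over 5000 genes were left out of the main comparisons, and they carry a signal of all 9 genes. An alternative without the upper limit on genes let in those within the mitochondrial limit. Under it, 68 log2 changes of the 9 genes stayed on the same side of the threshold, 3 lost the call and 1 gained one. They had a median of 32188.5 UMIs, and 97.8% of them were cycling. Tyms was at 255 CPM in these cells, Rrm1 at 223 CPM, Rrm2 at 152.5 CPM, Tk1 at 97.8 CPM, Shmt1 at 50.2 CPM, Shmt2 at 100.9 CPM, Mthfd1 at 64.2 CPM, Mthfd2 at 67.2 CPM and Atic at 123 CPM. In the cycling cells that were kept from the same run, the levels were 241, 194, 131, 91.1, 40.1, 74.9, 46.2, 54.8 and 96.5 CPM in the same order. Each gene was thus higher in the cells left out, and the part of their depth (the kept cycling cells had a median of 14442 UMIs) was not tested.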

How the results depend on the processing

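Each log2 change of the 9 genes in the 8 comparisons was recomputed under the alternatives, which gave 933 values. Of these, 865 stayed on the same side of the threshold, 57 lost the call, 11 gained one and 0 reversed a called direction. Without the run block, 5 of the 9 genes were called in cycling against resting DN2-like cells, 0 in cycling DN3-like against DN2-like cells, 1 in γδ-like against DN3-like cells and 0 in S-like against G2/M-like cells. Calls over all genes fell as well, to 678, 307, 708 and 286 in the same order, from 3218, 1803, 3128 and 1926 as reported. For the other alternatives, calls over all genes are given below as ranges only. Leaving out each run in turn gave 7 to 8, 8 to 9, 1 to 3, 0 to 4 and 1 to 7 genes for cycling in DN2-like and DN3-like cells, cycling DN3-like against DN2-like, γδ-like against DN3-like and S-like against G2/M-like cells, respectively, with the lowest of the last 2 without run 3. Gates from cells thinned to 2000 UMIs left 0 genes in cycling DN3-like against DN2-like cells and 2 in γδ-like against DN3-like cells, and kept 324 of 432 levels within the Poisson interval of their value. The 432 cover only sums that still had at least 30 cells. Some of the 59 sums fell below that with these gates, and their levels were not compared. Cycle limits 1.5 times higher called 5 genes in cycling DN3-like against DN2-like cells, and limits 1.5 times lower called 1 in γδ-like against DN3-like cells.

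Over all genes, the number called ran from 678 to 4324 (3218 as reported) and from 1126 to 4978 (4321) for cycling in DN2-like and DN3-like cells, from 91 to 1561 (806) and from 307 to 2284 (1803) for DN3-like against DN2-like resting and cycling cells, from 30 to 638 (508) for DN1-like progenitors, from 708 to 3317 (3128) for γδ-like cells, from 286 to 2662 (1926) for S-like cells and from 0 to 38 (1) for the difference of the cycling effects. Most of the lowest counts came from the fit without the run block. The run block pairs the sums of the same library, and the labels number no replicates beyond it. Resting cells gave few UMIs of Tk1 and Rrm2, which limits what can be seen there.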
